A study of Oryza sativa with 6 samples.

Results

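The 10 genes described here encode enzymes of trehalose metabolism in rice: the class I trehalose-6-phosphate synthase TPS1 (LOC_Os05g44210), 6 class II trehalose-6-phosphate synthase genes, and the trehalose-6-phosphate phosphatases TPP1, TPP2 and TPP7. They were taken by locus identifier from a list of named genes, a rule that uses no count, and all 10 are among the 55801 loci of the count files. Seedlings of Oryza sativa cultivar Nipponbare grew on Chu's medium at 28 °C in days of 12 h light and 12 h darkness, and RNA was sequenced from 3 libraries per time of day. PM plants were harvested 30 min before the lights went off, and AM plants 30 min before they came on. All 6 libraries share genotype, medium and temperature, and no treatment other than the light cycle is given. Whether the replicates were separate plants is not stated, so p-values describe only the spread between these libraries, which could be technical.

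In plants, trehalose-6-phosphate synthase (TPS) joins UDP-glucose and glucose-6-phosphate into trehalose-6-phosphate, and trehalose-6-phosphate phosphatase (TPP) removes the phosphate to give trehalose. Trehalose-6-phosphate is best known as a signal: in Arabidopsis it follows sucrose, and it inhibits the sugar-starvation kinase SnRK1. Class I proteins such as TPS1 make it, while most class II proteins carry a TPS and a TPP domain yet show little or no enzyme activity in Arabidopsis, where several are transcribed according to sugar supply. The expression of both families at the end of the light and of the dark period bears on a signal that tracks daily sugar supply.

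Gene counts per library ran from 13.0 M to 41.7 M in PM and from 22.3 M to 66.7 M in AM. The labels give whole seedlings as the material but the organ as panicle. Floral identity genes were scarce, with 9 of them summing to 4.43 to 5.66 CPM (counts per 1000000 gene counts, after the scaling below) in PM and 6.89 to 9.18 CPM in AM; MADS8 had no count. They did not move one way: MADS16, at 1.3 ± 0.736 CPM in PM and 5.33 ± 1.01 CPM in AM, supplied most of the AM sum, while MADS58 was higher in PM, at 1.51 ± 0.336 CPM in PM and 0.458 ± 0.151 CPM in AM (SD, n = 3 each). The 4 root marker loci, 2 of them (RCc3 and LSI2) with no count, summed to 15 to 17.1 CPM in PM and 31.2 to 38.8 CPM in AM. Among them the silicon transporter gene LSI1 averaged 6.44 ± 0.563 CPM in PM and 22.1 ± 6.13 CPM in AM. The other root marker with counts, the potassium channel gene AKT1, overlapped, at 9.62 ± 1.57 CPM in PM and 11.9 ± 3.64 CPM in AM, and was not called, so the gap in the sum came mostly from LSI1. The 3 leaf marker loci summed to 2370 to 3100 CPM in PM and 48300 to 71100 CPM in AM. They were RCA for Rubisco activase (log2 −4.47), PRK (−2.89) and LHCB4 (−8.45). In such bulk RNA, fewer cells of a type and less RNA per cell cannot be told apart, and the part of tissue make-up in the changes below was not tested.

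Of the 10 members, 5 were lower in PM (TPS1, the class II genes LOC_Os08g31630 and LOC_Os02g54820, TPP2 and TPP7), 1 was higher (the class II gene LOC_Os08g34580), 3 did not pass the test and 1 had no count at all. The test was edgeR's quasi-likelihood test over 20548 loci, with TMM scaling and a Benjamini-Hochberg adjusted p of 0.05. Of all loci tested, 55.9% were called, 28.0% as higher and 28.0% as lower in PM, so calls are common in this comparison and 6 called members are no departure from it. PM and AM values did not overlap at 6 of the 9 tested members and at 64.1% of all tested loci. Among the 9 tested members the median log2 change (PM over AM) stood at −0.86, beside −0.01 among all loci.

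These values depend on how libraries are scaled. With library totals alone the median locus lay at 0.84 and the median member at −0.02. Under that scaling 2 members were called higher, LOC_Os08g34580 and LOC_Os09g23350, where 54.5% of all loci were. Another 2 were called lower, LOC_Os08g31630 and TPP2, where 13.5% of all loci were. Of the 6 calls, those of LOC_Os08g34580 and LOC_Os08g31630 thus held under both scalings. TPP2 was also called under both, but it entered the test through its AM counts alone, so its call adds little. A fall of TPS1, LOC_Os02g54820 or TPP7 is a fall relative to the median locus.

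**Figure D1:**
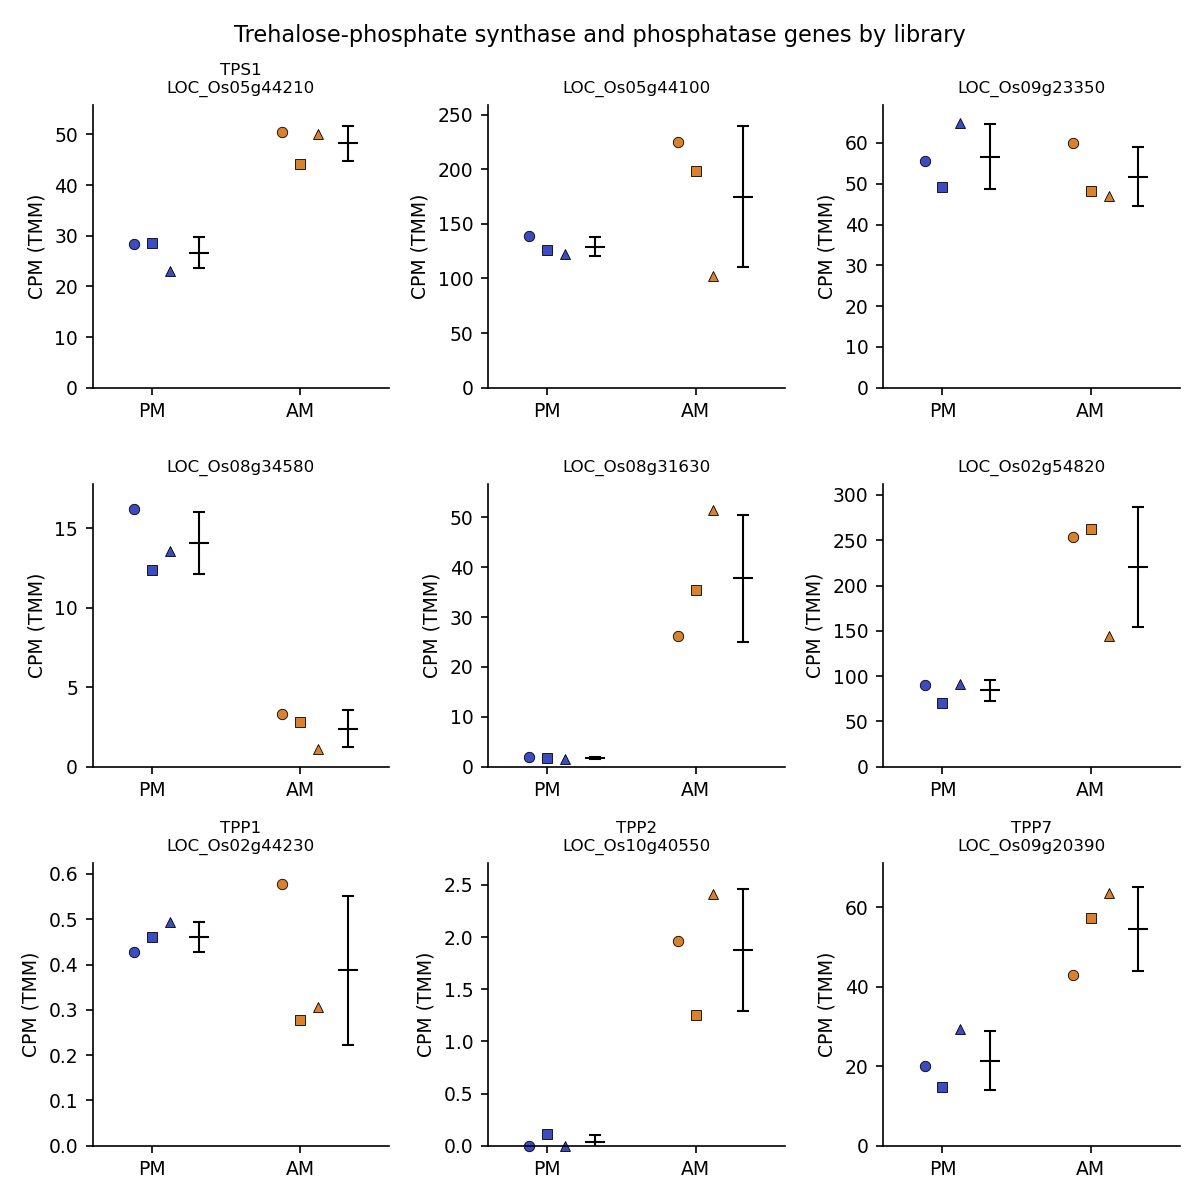
TMM-normalised CPM (linear axis from 0) of the 9 members with counts, in PM and AM libraries; circles, squares and triangles are replicates 1, 2 and 3, and bars give the mean and SD (n = 3 each). LOC_Os08g34580 is higher in every PM library than in any AM library, and TPS1, LOC_Os08g31630, LOC_Os02g54820, TPP2 and TPP7 are lower.

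TPS1 makes trehalose-6-phosphate and is the only class I gene in the set. It stood at 28.3, 28.6 and 23.1 CPM in PM replicates 1, 2 and 3, against 50.4, 44.2 and 50.1 CPM in AM replicates 1, 2 and 3. Every PM library lay below every AM library, and replicates within a group lay close together. The means were 26.7 ± 3.09 CPM in PM and 48.3 ± 3.49 CPM in AM (SD, n = 3), a log2 fold change of −0.86 (SE 0.16) with an edgeR adjusted p of 0.00173. With library totals alone it was at −0.02, with a 95% interval from −0.49 to 0.46, and was not called.

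Calls among the class II genes went both ways, as they did over all tested loci, where 28.0% were called higher and 28.0% lower in PM. Among the 6, 1 was higher in PM, 2 were lower, 2 did not pass the test and 1 was never counted. The median log2 fold change of the 5 tested was −0.44.

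LOC_Os08g34580 was the class II gene that rose. It had 16.2, 12.4 and 13.6 CPM in PM replicates 1, 2 and 3, against 3.29, 2.8 and 1.09 CPM in AM replicates 1, 2 and 3. The groups were well apart, and AM replicate 3 was the lowest of all. The mean in PM was 14.1 ± 1.95 CPM and that in AM 2.39 ± 1.16 CPM (SD, n = 3), a 5.93-fold difference (log2 2.57, SE 0.38, edgeR adjusted p = 0.000503). The rise was called under each of the 14 alternative settings tried, with log2 values from 2.22 to 3.45. The counts behind it were 1414 in PM and 210 in AM.

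LOC_Os08g31630 showed the opposite pattern, and by more. It stood at 1.96, 1.67 and 1.46 CPM in PM replicates 1, 2 and 3, against 26.3, 35.4 and 51.5 CPM in AM replicates 1, 2 and 3. The PM libraries differed little among themselves, while AM replicate 3 held nearly double the level of AM replicate 1. Means of 1.7 ± 0.249 CPM in PM and 37.7 ± 12.8 CPM in AM (SD, n = 3) gave a log2 fold change of −4.49 (SE 0.30, edgeR adjusted p = 7.91e-06). Under the 14 alternatives the values lay between −4.68 and −3.65, all called. This was the lowest value among the TPS genes; over all tested loci the 5th percentile was −3.13 and the 95th 2.73.

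LOC_Os02g54820 was the second class II gene that fell. Its levels were 90.6, 70.8 and 91.5 CPM in PM replicates 1, 2 and 3, against 254, 263 and 144 CPM in AM replicates 1, 2 and 3. The groups did not overlap, but AM replicate 3 lay much nearer to the PM libraries than the other AM libraries did. The means were 84.3 ± 11.7 CPM in PM and 220 ± 66.3 CPM in AM (SD, n = 3), with a log2 fold change of −1.38 (SE 0.25, edgeR adjusted p = 0.00164). It was at −0.51 and not called with library totals alone.

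LOC_Os05g44100 and LOC_Os09g23350 did not pass the test. LOC_Os05g44100 had 139, 126 and 122 CPM in PM replicates 1, 2 and 3, against 225, 198 and 102 CPM in AM replicates 1, 2 and 3. AM replicate 3 was the lowest of the 6 libraries, so the groups overlapped although the other AM libraries were the highest. The log2 fold change was −0.44, with a 95% interval from −1.06 to 0.18; without AM replicate 3 it was −0.71 and past the threshold, and with library totals alone it was 0.43.

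LOC_Os09g23350 had 55.6, 49.3 and 65.0 CPM in PM replicates 1, 2 and 3, against 60.0, 48.1 and 47.1 CPM in AM replicates 1, 2 and 3. The ranges of the groups overlapped. Its log2 fold change was 0.13, and the 95% interval from −0.26 to 0.53 leaves room for small changes either way. With library totals alone it was at 0.97 and called higher.

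LOC_Os09g25890 had 0 counts in all 6 libraries. A count of 0 allows up to 3 counts, which equals 0.0548 to 0.173 CPM in the PM libraries and 0.0694 to 0.173 CPM in the AM libraries, for counting error only. The gene was not tested.

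**Figure D2:**
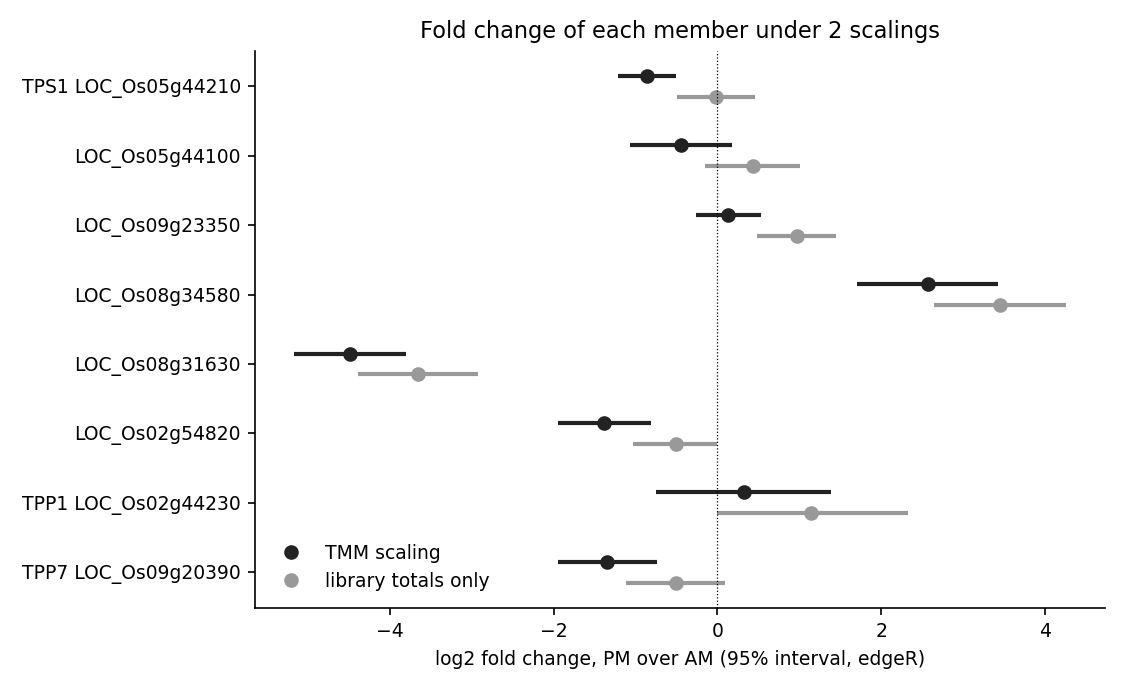
Log2 fold change of PM over AM with its 95% interval from edgeR for 8 tested members, under TMM scaling (black) and library totals only (grey). LOC_Os08g34580 (2.57 and 3.45) and LOC_Os08g31630 (−4.49 and −3.65) stay clear of 0 under both, TPS1 lies at −0.86 with TMM and −0.02 with library totals, and TPP2 is left out because its PM libraries hold 2 counts.

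Ratios of counts within one library need no scaling between libraries. They are not corrected for gene length, so they show shifts between the times and not which gene is the more abundant. The log2 ratio of LOC_Os08g34580 to LOC_Os08g31630 was 3.05, 2.89 and 3.22 in PM replicates 1, 2 and 3, against −3.0, −3.66 and −5.57 in AM replicates 1, 2 and 3. The ratio was positive in every PM library and negative in every AM library. The mean difference of PM minus AM was 7.13 log2 units. This pair was not among the planned ratios, which were those of class II genes to TPS1. It joins the class II gene called higher with the one that fell most in these same libraries. Its separation therefore follows from the calls above and adds no support to them.

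Relative to TPS1, LOC_Os08g34580 was at −0.93 ± 0.24 in PM and −4.48 ± 0.91 in AM (log2 ratio of counts, SD, n = 3). LOC_Os08g31630 was at −3.98 ± 0.13 in PM and −0.41 ± 0.50 in AM on the same scale. LOC_Os09g23350 was also higher relative to TPS1 in every PM library, at 1.08 ± 0.37 in PM and 0.09 ± 0.17 in AM. With TMM scaling TPS1 had a log2 fold change of −0.86 and LOC_Os09g23350 one of 0.13. With library totals alone they were at −0.02 and 0.97, so which of them moved depends on the scaling. The groups overlapped for LOC_Os05g44100, at 2.28 ± 0.13 in PM and 1.78 ± 0.65 in AM, and for LOC_Os02g54820, at 1.66 ± 0.34 in PM and 2.14 ± 0.55 in AM. For TPP7 they overlapped too, at −0.37 ± 0.65 in PM and 0.16 ± 0.34 in AM. Among class II transcripts, LOC_Os08g34580 took 4.9% ± 0.378 of the counts in PM and 0.468% ± 0.138 in AM, and LOC_Os08g31630 took 0.594% ± 0.084 in PM and 8.67% ± 5.48 in AM (SD, n = 3).

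**Figure D3:**
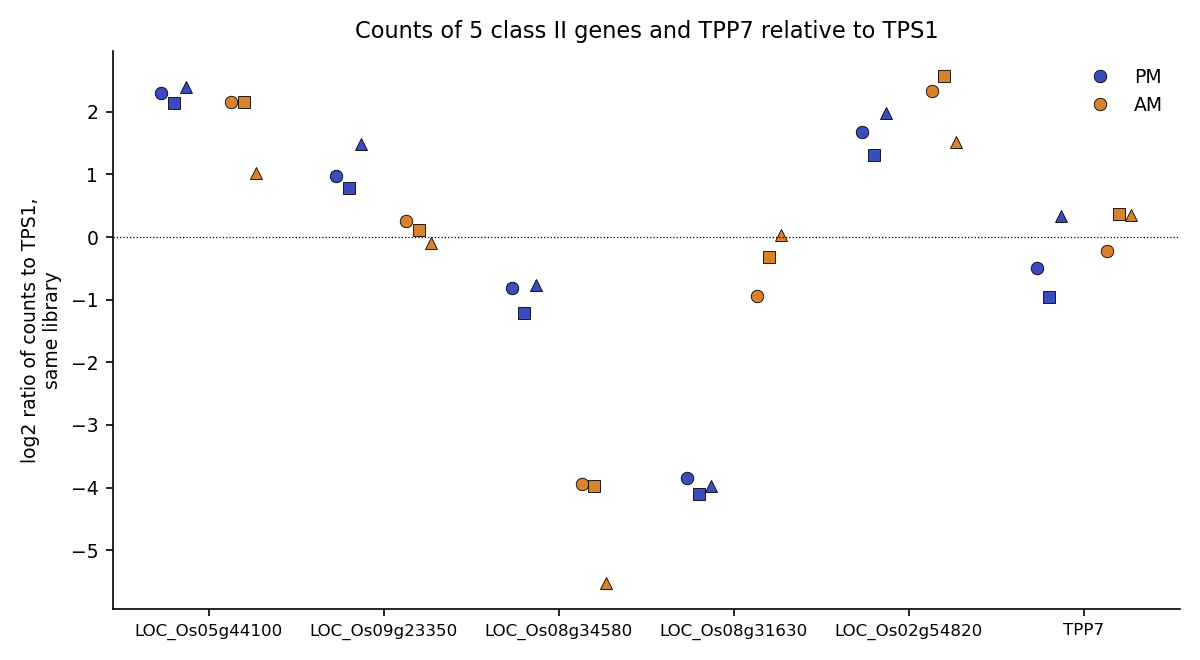
Log2 ratio of raw counts to those of TPS1 in the same library, for 5 class II genes and TPP7; each point is 1 library, and circles, squares and triangles are replicates 1, 2 and 3. LOC_Os08g34580 and LOC_Os09g23350 lie higher in PM, LOC_Os08g31630 lies lower in PM (mean −3.98 against −0.41 in AM), and the other 3 overlap.

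Scaled by library totals alone, the 10 genes together summed to 449 ± 39.4 CPM in PM and 438 ± 71.6 CPM in AM (SD, n = 3), and the ranges overlapped. After TMM scaling the same sum was 335 ± 25.8 CPM in PM and 592 ± 113 CPM in AM. LOC_Os02g54820 and LOC_Os05g44100 supplied most of it, so the sum says little about the other members.

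The phosphatases, which turn trehalose-6-phosphate into trehalose, held 2 genes that were lower in PM and 1 that did not pass. TPP7, known in rice for helping seeds to germinate under water, had 20.1, 14.8 and 29.4 CPM in PM replicates 1, 2 and 3, against 43.0, 57.3 and 63.7 CPM in AM replicates 1, 2 and 3. All PM libraries lay below all AM libraries, with a broad spread in both groups. The means were 21.4 ± 7.39 CPM in PM and 54.7 ± 10.6 CPM in AM (SD, n = 3), a log2 fold change of −1.35 (SE 0.27, edgeR adjusted p = 0.00266), and −0.51 without a call under library totals alone.

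TPP2, whose product is an active phosphatase in rice, had almost all of its counts in AM. There were 0, 2 and 0 counts in PM replicates 1, 2 and 3, against 34, 54 and 71 counts in AM replicates 1, 2 and 3. The scaled PM level was 1.13% of the AM level, with an exact 95% interval from 0.136% to 4.15% that covers counting error only. The edgeR adjusted p was 0.000558. TPP2 entered the test through its AM counts alone, and without PM replicate 2 the PM libraries held no count.

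TPP1, another active phosphatase in rice, was barely detected. It had 12, 8 and 27 counts in PM replicates 1, 2 and 3, against 10, 12 and 9 counts in AM replicates 1, 2 and 3, or 0.46 ± 0.0332 CPM in PM and 0.387 ± 0.165 CPM in AM (SD, n = 3). The groups overlapped. The log2 fold change was 0.32, with a 95% interval from −0.75 to 1.39, so a doubling was not resolved at this depth.

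AM replicate 3 stood at an extreme of its group for most members, the lowest AM library for 4 of the 9 tested and the highest for 3. Over all tested loci it was the lowest for 37.0% and the highest for 37.8%. TPS1 and TPP1 were the members for which it lay between the others. The class II genes LOC_Os05g44100, LOC_Os09g23350, LOC_Os08g34580 and LOC_Os02g54820 were lowest there, and LOC_Os08g31630, TPP2 and TPP7 highest.

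Profiles were compared by the Euclidean distance between log2 CPM values centred on each gene's mean, over the 6 libraries and among the tested members and pathway genes. A constant of 0.5 CPM was added before taking logs, which flattens the profiles of genes near or below it. LOC_Os09g23350 and TPP1 were each other's nearest profile, at 0.271, but TPP1 averaged less than 0.5 CPM at both times, so its profile is flat by construction. TPS1 lay nearest to SnRK1A, at 0.353, and LOC_Os02g54820 nearest to SnRK1B, at 0.42. The nearest to LOC_Os08g34580 was AMY3D, at 1.07, and the nearest to LOC_Os08g31630 was TPP9, at 1.99. With 2 times of day such distances mostly reflect the PM to AM difference and say nothing of shared control.

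Of 6 further TPP genes, 1 was lower in PM, 1 did not pass the test and 4 had too few counts to be tested, with at most 26 in a library. Over all tested loci 28.0% were called lower in PM, and 13.5% with library totals alone. TPP9 (LOC_Os03g26910) stood at 0.32, 0.0575 and 0.0731 CPM in PM replicates 1, 2 and 3, against 18.8, 22.5 and 6.55 CPM in AM replicates 1, 2 and 3. Like TPP2 it was near its floor in PM, with 14 counts there and 1491 in AM, and it entered the test through its AM counts alone. The fitted log2 fold change of −6.74 (SE 0.70, edgeR adjusted p = 7.16e-05) therefore rests on few PM counts, and was −7.76 without PM replicate 1. The test did not call TPP10 (LOC_Os07g30160), which was at −0.72 (SE 0.63) with 24 counts in PM and 34 in AM. TPP3, TPP4, TPP6 and TPP8 were the untested ones.

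SnRK1, the kinase that trehalose-6-phosphate inhibits, and genes of the rice sugar-starvation response formed a list of 9. Of the 8 tested, 4 were lower in PM, 2 higher and 2 did not pass, and AMY3E had no count. These 6 calls of 8 stand beside 55.9% of all loci, with 28.0% called in each direction. With library totals alone 2 were lower, MYBS2 and MYBS3, beside 13.5% of all loci, and 3 higher, CIPK15, AMY3D and OSK3, beside 54.5%. For SnRK1A (LOC_Os05g45420), a catalytic subunit that acts in sugar starvation in rice seedlings, the levels were 56.6, 69.8 and 48.5 CPM in PM replicates 1, 2 and 3, against 117, 106 and 92.5 CPM in AM replicates 1, 2 and 3. Without overlap between the groups, its log2 fold change of −0.85 (SE 0.18, edgeR adjusted p = 0.00414) was close in size to that of TPS1. SnRK1B (LOC_Os08g37800), its relative, averaged 18.7 ± 3.07 CPM in PM and 49.7 ± 14.2 CPM in AM (log2 −1.41, SE 0.24, edgeR adjusted p = 0.00113). By library totals alone SnRK1A was at 0.00 and SnRK1B at −0.55, neither called. The third kinase gene, OSK3 (LOC_Os03g17980), was at −0.10 (SE 0.16), not called, and at 0.75 with library totals alone.

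The MYB factors MYBS1, MYBS2 and MYBS3 bind a sugar-response element in alpha-amylase promoters; MYBS1 activates and MYBS2 represses. MYBS2 (LOC_Os10g41260) had 17.8, 15.6 and 15.7 CPM in PM replicates 1, 2 and 3, against 72.3, 82.6 and 87.4 CPM in AM replicates 1, 2 and 3. That fall (log2 −2.30, SE 0.16, edgeR adjusted p = 8.71e-06) and the one of MYBS3 (LOC_Os10g41200; −1.61, SE 0.16, edgeR adjusted p = 5.22e-05) were called under both scalings, at −1.46 and −0.76 with library totals alone. MYBS1 (LOC_Os01g34060) varied widely within groups, at 89.1 ± 46.7 CPM in PM and 134 ± 44.6 CPM in AM, and did not pass (−0.58, SE 0.41).

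AMY3D (LOC_Os08g36910), an alpha-amylase gene that sugar starvation induces in rice cells, had 9.04, 2.65 and 6.3 CPM in PM replicates 1, 2 and 3, against 1.1, 1.46 and 0.0679 CPM in AM replicates 1, 2 and 3. The groups did not overlap, but PM varied several-fold among replicates and AM by more. The AM values rested on 19, 63 and 2 counts in AM replicates 1, 2 and 3. AM replicate 3 lay below the minimum of the filter, and AM replicates 1 and 2 lay above it. AMY3D could therefore enter the test through its PM counts alone, but not through its AM counts alone. AMY3D rose by 2.77 log2 units (SE 0.78, edgeR adjusted p = 0.015), or by 3.53 without AM replicate 2. The call ended without PM replicate 1, at 2.37. CIPK15 (LOC_Os11g02240), a kinase that acts above SnRK1A when oxygen is low, was at 97.6 ± 19.7 CPM in PM and 54.7 ± 21.9 CPM in AM. It passed narrowly (log2 0.84, SE 0.32, edgeR adjusted p = 0.0495), with no call under RLE scaling, in the set above 5 CPM, or with any 1 of 4 libraries left out (0.80 when that was PM replicate 1, 0.72 for PM replicate 2, 0.99 for AM replicate 2 and 0.54 for AM replicate 3).

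**Figure D4:**
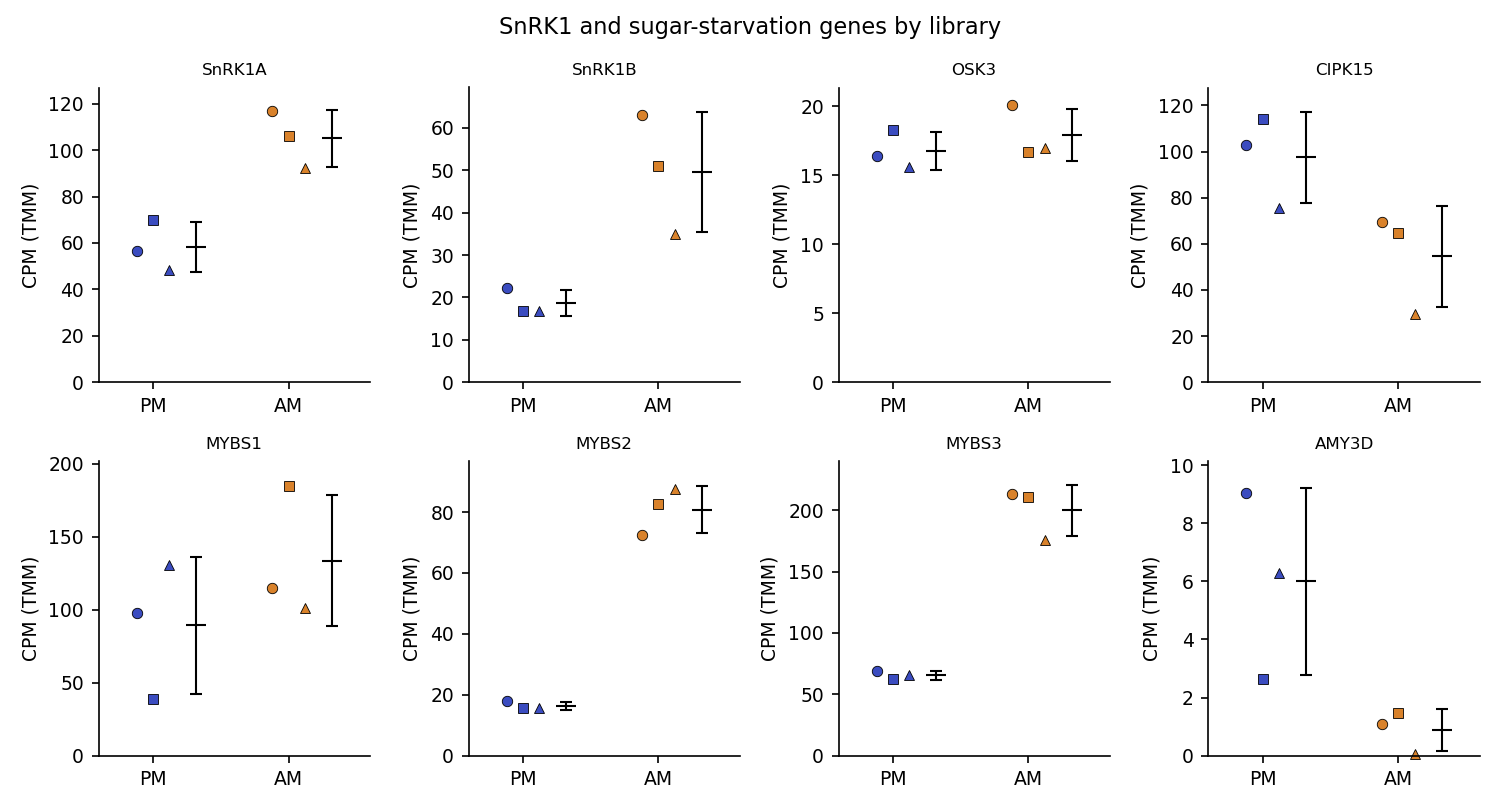
TMM-normalised CPM (linear axis from 0) of the 8 tested SnRK1 and sugar-starvation genes in PM and AM libraries; circles, squares and triangles are replicates 1, 2 and 3, and bars give the mean and SD (n = 3 each). MYBS2 and MYBS3 are lower in every PM library than in any AM library, AMY3D and CIPK15 are higher, and MYBS1 and OSK3 overlap.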

How the data were processed

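RNA labelled as from whole seedlings, with the organ given as panicle (2 µg per library, NEB directional kit), was sequenced in 3 PM and 3 AM libraries. The authors deposited raw read counts per MSU locus; the submitters' processing notes list the tools HTSeq 0.6.1, STAR and Trimmomatic 0.33. For build, annotation version and strand setting, nothing was given in the sources used here. Whether reads of antisense genes were told apart is therefore not known. Records that fell on several genes, counted as ambiguous, made up 0.112% to 0.171% of all records. Records aligned to several places made up 39.1% to 56.1% of all records and those on no feature 2.92% to 6.26%; such lines stayed out of totals and tests. Members with near-identical copies could lose reads to the line for multiple alignments, which makes their levels uncertain. No gene lengths were at hand, so levels are compared between libraries and not between genes.

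Counts were tested with edgeR 4.0.16 (glmQLFit, glmQLFTest, R 4.3.3), TMM, filterByExpr (minimum count 10) and Benjamini-Hochberg adjustment over 20548 loci. SEs come from the coefficient and its F statistic. CPM are TMM-normalised, with factors of 1.315 to 1.377 in PM and 0.6489 to 0.8167 in AM. Likeness used log2(CPM + 0.5). Alternatives were scaling by RLE, upper quartiles or library totals, a filter at a mean of 5 CPM or none, DESeq2 1.42.0, limma-voom (limma 3.58.1), a replicate block and leaving out each library. Replicates differed by more than sampling noise (chi-square per degree of freedom 19.9 to 142.4).

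All 10 members are named; of the pathway lists, called genes with the 2 smallest p in each direction, plus genes chosen after their values were seen (SnRK1A, SnRK1B, OSK3, MYBS1, TPP10 and those without calls). The members and lists were chosen with earlier results of these data known. Pathway names were paired with MSU loci from general knowledge, since the RefSeq gene table of ASM3414082v1 holds no MSU identifiers, and kept where that table has the symbol or synonym on the same chromosome. It held 3 members (TPP1, TPP2, TPP7) and 15 of 24 pathway entries; the other 9 entries (trehalase, sugar-nucleotide supply, TPP5 and other TPS loci) were left out. TPS1 and the class II status of 6 loci rest on the member list. The leaf marker loci LOC_Os02g47020 (PRK) and LOC_Os07g37240 (LHCB4) and the root marker locus LOC_Os02g44310 (RCc3) had no match in that table either. They were kept, so their names rest on general knowledge alone. Promoter motifs and sequences were not analysed here.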

Additional observations from a re-analysis of the deposited data

How the results depend on the processing

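Library-total scaling changed most: over all loci 11201 were higher and 2764 lower in PM, against 5748 and 5745 with TMM; among members 2 were higher and 2 lower, against 1 and 5. Among SnRK1 and sugar-starvation genes 2 were then lower, against 4. It turned the sign of LOC_Os05g44100 (0.43), TPP10 (0.11), SnRK1A (0.00), OSK3 (0.75) and MYBS1 (0.30); OSK3 lay between −0.15 and 0.00 with 1 library left out, the upper value without AM replicate 1. Causes were not tested, other than that the median locus itself lay at 0.84. Calls higher among SnRK1 and sugar-starvation genes numbered 1 with RLE scaling and 0 above 5 CPM, where AMY3D was not tested, against 2, and 0 to 2 with 1 library left out. Further TPP genes lower in PM numbered 2 without a filter, against 1, and 1 to 2 with 1 library left out. With 1 library left out, members higher and lower numbered 1 and 5 to 6, beside 4847 to 6061 and 4821 to 5800 over all loci. Over all loci 5678 were higher with RLE scaling and 4228 above 5 CPM, and 6080 were lower without a filter. How many loci were tested with another filter or without a library is not at hand, so these are not shares. Members without overlap numbered 6 with RLE or upper-quartile scaling and 5 with library totals. The share of all tested loci without overlap is at hand for TMM only (64.1%), so these counts have no baseline of their own. The ratio of LOC_Os08g34580 to LOC_Os08g31630 and that of TPP7 to TPS1 were not planned. The RLE and upper-quartile counts, and leaving out libraries in the ratios to TPS1, were chosen after seeing the data. The log2 ratio to TPS1 (PM minus AM) then ran from 0.12, without AM replicate 3, to 0.68 for LOC_Os05g44100 (0.50 with all 6), and from −0.79, without AM replicate 3, to −0.27, without AM replicate 2, for LOC_Os02g54820 (−0.48 with all 6). The replicate block gave 5077 higher and 5060 lower loci and the same counts of members. Whether same-numbered libraries were paired is not stated. Their deviations from the group means correlated at −0.0579, −0.273 and 0.102, and 1 of 6 libraries correlated best with its own number. With so few libraries per group, this check cannot decide whether they were paired. Depth limits TPP1, TPP2, TPP10 and the untested genes.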
